A study of Mus musculus with 4 samples.

Results

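Neutrophils of the mouse carotid artery were examined on days 3 and 7 after wire injury. Per the study, this deep form of the operation strips the endothelium and also disrupts the internal elastic layer of the vessel wall. A cell barcode was counted as a neutrophil when S100a8 and S100a9 together made up at least 1% of its unique molecular identifiers (UMIs, which count captured mRNA molecules), when Csf3r, Cxcr2, Retnlg, G0s2 and Hdc together had at least 2 UMIs, and when no UMI of the monocyte receptor gene Csf1r was present. Only barcodes with at least 200 genes and at most 20% mitochondrial UMIs were considered. By this definition 166 of the 5708 barcodes kept in the whole time course were neutrophils, 123 of 1528 at day 3 and 43 of 2749 at day 7.

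The time course comprised carotid arteries of C57BL/6 mice aged 11 weeks before injury, taken uninjured (day 0) and on days 3, 7 and 14 after injury, with no other treatment or genetic change in the labels. Per the study's methods the mice were male, vessels of several animals were pooled for each time point, and vessels in which thrombosis was seen were left out. The tissue was digested with enzymes for 1 h at 37 °C and dead cells were removed before droplet capture. Each day was represented by 1 library, so day and library cannot be told apart, no test between days was possible, and every interval below is a 95% interval for counting error only.

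Neutrophils are short-lived granulocytes that are made in the bone marrow, fill their granules with antimicrobial proteins while they mature there, and enter injured tissue from the blood within hours. They roll and arrest on vessel walls by adhesion molecules such as integrins, follow chemoattractants such as CXCR2 ligands, complement C5a, leukotriene B4 and formyl peptides, and release cytokines that draw in further leukocytes. Granule proteins are transcribed in the marrow, so a neutrophil in tissue carries granule protein with little of its mRNA.

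The 123 neutrophils of day 3 held 360839 UMIs and the 43 of day 7 held 128369. Median UMIs per neutrophil were 2907 and 3091, and median genes 1088 and 1063, against median UMIs of 12491 and 11533 in Csf1r-positive barcodes (at least 2 Csf1r UMIs) of the same libraries. The neutrophils were thus shallow in both libraries and of like depth. Mitochondrial genes took a median of 0.42% of neutrophil UMIs at day 3 and 0.477% at day 7. Summed over cells, however, they stood at 5241 and 11638 CPM, and at 7510 CPM at day 7 without 1 barcode rich in stromal RNA that is described further on. Levels are given as CPM, the UMIs of a gene summed over the neutrophils of a day as counts per 1000000 UMIs of those cells, and at 50 CPM a gene rested on 18 UMIs at day 3 and 6 at day 7. Of the barcodes in the files, 152 occurred in both the day 0 and the day 3 library and 64 in both the day 7 and the day 14 library, a sharing whose source was not tested and which bears on the day 0 library, of 333 barcodes, as a comparison. Of the neutrophils only 1, of day 3, shared its barcode, with the day 7 library.

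Neutrophils made up 8.05% (6.74 to 9.53) of the barcodes kept at day 3 and 1.56% (1.13 to 2.1) at day 7, a ratio of 0.194 (0.134 to 0.277). The definition was met by 0 of 330 barcodes at day 0 and by 0 of 1101 at day 14, for which a limit of 3 counts gives shares of up to 0.909% and 0.272%. Neutrophils contributed 1.90% of all UMIs of the day 3 library and 0.459% of those of the day 7 library. These are shares of the cells recovered, which also move with the recovery of other cell types, and the number of neutrophils per vessel was not measured.

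The genes of the definition gave the following values, which are a description only. S100a8 and S100a9, the subunits of the calcium-binding protein calprotectin, were at similar levels on both days, with 27891 and 27748 CPM for S100a8 and 32704 and 35125 CPM for S100a9. Csf3r, the receptor of the granulocyte growth factor G-CSF, stood at 2378 CPM at day 3 and 2018 CPM at day 7, and Cxcr2, the receptor of the CXC chemokines that attract neutrophils, at 1422 and 1153 CPM. Hdc, the histamine-producing enzyme, was at 1749 and 1924 CPM. G0s2, an inhibitor of triglyceride breakdown, was higher at day 7 (2605 and 6162 CPM, ratio of day 7 to day 3 with its interval 2.37, 2.15 to 2.6), and so was Retnlg, a secreted resistin-like protein (635 CPM at day 3 and 1465 CPM at day 7, ratio 2.31, 1.89 to 2.81). G0s2 was seen in 35.8% and 48.8% of the neutrophils, and Retnlg in 30.9% and 41.9%, at days 3 and 7. Without the S100 condition the log2 ratio of G0s2 went from 1.24 to 0.69 and that of Retnlg from 1.19 to 0.51, and without the highest cell of each day that of Retnlg was 0.94.

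**Figure D1:**
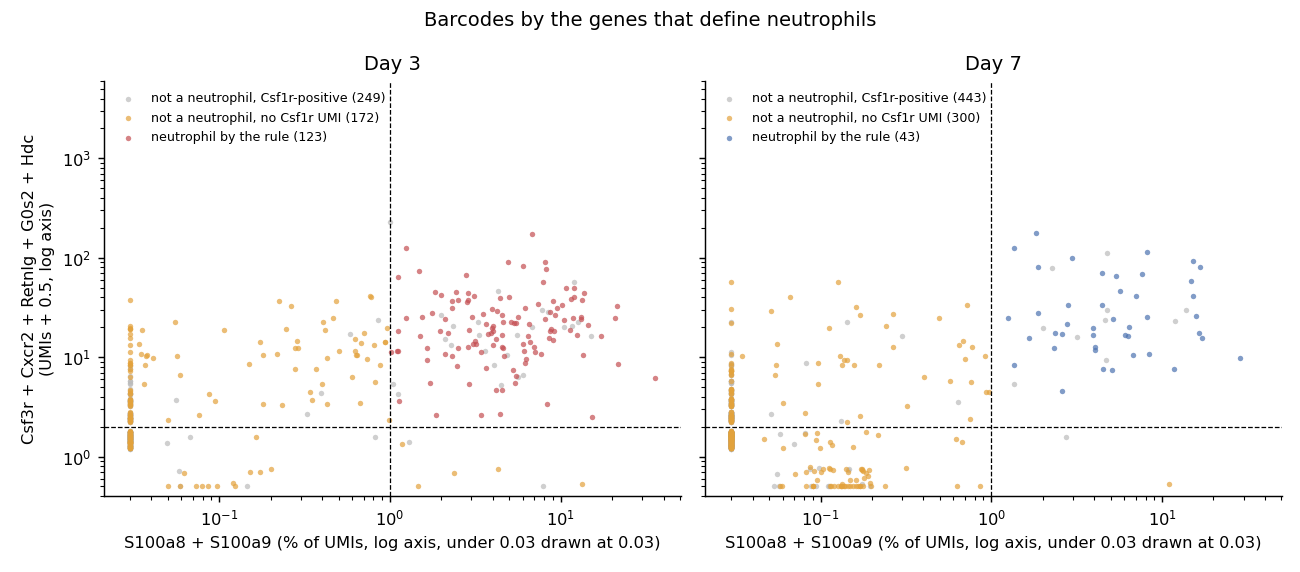
Barcodes of days 3 and 7 by the share of S100a8 plus S100a9 in their UMIs (horizontal, log axis) and by the summed UMIs of the 5 other genes of the definition (vertical, 0.5 added, log axis, points spread slightly); barcodes with under 0.05% S100 and no UMI of the other genes are not drawn, shares under 0.03% are drawn at 0.03%, and dashed lines mark the thresholds. The 123 (red) and 43 (blue) neutrophils lie at upper right, grey barcodes have Csf1r UMIs, orange ones have none and are not neutrophils, and a tail of barcodes with many UMIs of the other genes lies left of the 1% line.

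The S100 threshold ran through a sparse but continuous range. Among neutrophils the S100 share ran from 1.01% to 35.6% at day 3, with a median of 4.55%, and from 1.26% to 28.6% at day 7, with a median of 5.07%. Just inside the threshold, 8 neutrophils of day 3 and 0 of day 7 had between 1% and 1.25%, and just outside it 9 and 6 barcodes had between 0.75% and 1%. For the other genes, 6 and 0 neutrophils had 2 or 3 UMIs, and 5 and 1 barcodes failed with fewer. The Csf1r condition removed 24 and 10 barcodes, of which 21 and 8 had a single Csf1r UMI.

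A larger group lay below the S100 threshold. With at least 4 UMIs of the 5 other genes and no Csf1r, 70 barcodes of day 3 and 55 of day 7 had an S100 share under 1%, as did 15 of day 0 and 19 of day 14. After the values were seen, these were split by the share of fibroblast markers. Of these barcodes, 65 at day 3 and 50 at day 7 had under 1% fibroblast markers, against 0 at day 0 and 1 at day 14. The 65 and 50 barcodes had median UMIs of 2817 and 3181, like the neutrophils, and contained Cxcl2 at 27144 and 23163 CPM, and Il1b at 13515 and 9680 CPM. Those of day 7 also held Mcpt8 at 171.6 CPM and Cpa3 at 243.5 CPM, genes of basophils and mast cells, both of which were at 0 in those of day 3. The 70 and 55 barcodes, those with more fibroblast markers included, held class II antigen presentation genes at 329.4 and 3567 CPM. These pooled values do not show which barcodes held the genes, and whether those of day 7 were of 1 kind was not tested. With the S100 condition dropped, at least 4 UMIs of the other genes required and fibroblast markers under 1%, the shares were 11.9% at day 3 and 3.31% at day 7, and their ratio was 0.278, nearer to 1 than on the main definition.

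The label was checked on 12 neutrophil genes that the definition did not use. Together they stood at 11858 and 10291 CPM in the neutrophils of days 3 and 7, against 305 and 503.6 CPM in Csf1r-positive barcodes and 185.6 and 245.4 CPM in T cells (at least 2 UMIs of Cd3d, Cd3e, Cd3g and Trbc2 together). Markers of most other cells were low. Endothelial markers came to 1 and 0 UMIs, basophil markers to 0 and 0, platelet markers to 2 and 0, and mast cell markers to 2 and 0. Monocyte markers were at 208 and 382 CPM and macrophage markers at 374 and 506 CPM, against 4332 and 2458 CPM and 13776 and 15997 CPM in Csf1r-positive barcodes. Among eosinophil markers, which include Siglecf, 5 and 6 of 7 genes were at 0. Together they stood at 85.9 and 70.1 CPM, above the 54 and 9.92 CPM of Csf1r-positive barcodes. Smooth muscle markers were at 202.3 and 187 CPM, above the 96.9 and 112.6 CPM of Csf1r-positive barcodes. In T cells they were at 67.9 and 383.4 CPM. The main exception was the fibroblast markers, at 726 and 3490 CPM, whose values are taken up with the genes of the matrix below. Only 31 neutrophils of day 3 and 1 of day 7 had fewer than 3 UMIs of other cell types' markers. Ly6g, the surface protein by which mouse neutrophils are usually stained, was almost undetected as mRNA, with 3 and 1 UMIs.

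The most abundant transcripts included those of inflammatory mediators. Cxcl2, a CXCR2 ligand that draws in further neutrophils, was the most abundant of them, with 37205 CPM (36578 to 37840) at day 3 and 32991 CPM (32005 to 34000) at day 7. Il1b, the precursor of interleukin-1 beta, had 16489 CPM (16073 to 16914) at day 3 and 14918 CPM (14257 to 15601) at day 7. Both were slightly lower at day 7, with ratios of 0.887 (0.856 to 0.918) and 0.905 (0.859 to 0.953). The same genes stood at 783 and 2104 CPM (Cxcl2) and 508 and 1456 CPM (Il1b) in the Csf1r-positive barcodes of both days, and at 61.1 and 78.9 CPM and 22.6 and 32.8 CPM in T cells.

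Other abundant mRNAs were those of the iron-storage protein ferritin, of the actin-binding thymosin and of the granule proteoglycan serglycin. Fth1, the ferritin heavy chain, was higher at day 7 (19238 and 27476 CPM, ratio 1.43, 1.37 to 1.49), whereas Ftl1, the light chain, was not (9519 and 9169 CPM, ratio 0.963, 0.901 to 1.03). Tmsb4x was at 12601 and 15533 CPM and Srgn at 10828 and 10135 CPM. Of the 20 most abundant genes, mitochondrial and ribosomal protein genes left out, 1 (Ccl4) differed 2-fold between the days. Among all genes compared below, 9.43% did.

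Genes were compared where the mean of both CPM values was at least 50, which held for 2523 of the 10640 genes with a UMI in a neutrophil. The comparison used the log2 ratio of day 7 to day 3 after adding 10 CPM to each value, which understates the difference of low genes, and 2-fold on that scale was used as the mark of a difference. Of the genes compared, 120 (4.76%) were at least 2-fold higher at day 7 and 118 (4.68%) at least 2-fold lower, or 9.43% either way. The median log2 ratio was -0.0033, which the scaling to CPM holds near 0, and the central 90% of the genes lay between -0.98 and 0.98. The interval of the ratio excluded 1 for 115 of the higher and 94 of the lower genes. After thinning each neutrophil to 1000 UMIs, where slightly more genes were compared, the counts were 328 higher and 293 lower. Only 76 of the 120 higher and 78 of the 118 lower genes were still among them.

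**Figure D2:**
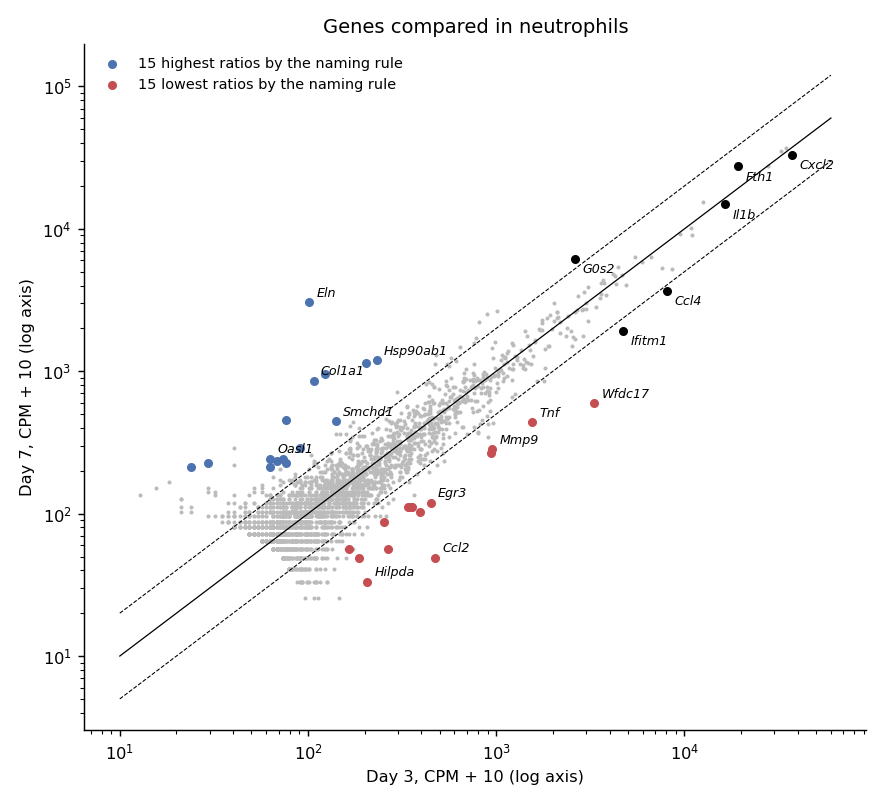
Levels of the 2523 genes compared (points), as CPM summed over the neutrophils of day 3 (horizontal) and day 7 (vertical), with 10 CPM added, on log axes; the solid line marks equality and the dashed lines 2-fold. Blue and red points are the 15 highest and 15 lowest ratios named by the rule, and black points are selected abundant genes, of which Cxcl2, Il1b and Fth1 lie inside the dashed lines.

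Secreted mediators were examined as a list of 20 cytokines and chemokines, of which 16 were compared. None was 2-fold higher at day 7 and 5 were 2-fold lower (Ccl2, Tnf, Il23a, Csf1 and Ccl4), against a background of 4.68% lower, and the median log2 ratio was -0.27. Of the 5, Ccl2 and Tnf stayed 2-fold lower under each of 13 other settings of the processing, whereas Il23a was at -0.90 with 50 CPM added and Csf1 at -0.99 after thinning, and Ccl4 is described further on. The list took 7.61% of neutrophil UMIs at day 3 and 6.11% at day 7, most of it Cxcl2 and Il1b. Tnf, the gene of tumour necrosis factor, was at 1538 CPM (1413 to 1672) at day 3 and 428 CPM (323 to 558) at day 7, a ratio of 0.279 (0.207 to 0.368). Its log2 ratio of -1.82 ran from -2.26 to -1.47 over these settings. Csf1, the growth factor of macrophages, was at 948 CPM at day 3 and 421 CPM at day 7, with a ratio of 0.444 (0.327 to 0.593).

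The chemokines Ccl4 and Ccl3, which attract monocytes and T cells, differed by unequal amounts. Ccl4 was at 8059 CPM at day 3 and 3677 CPM at day 7, with a ratio of 0.456 (0.413 to 0.503), but its log2 ratio of -1.13 became -0.30 without the S100 condition (4 UMIs of the other genes, fibroblast markers under 1%). Ccl3 was at 7593 CPM at day 3 and 5258 CPM at day 7, with a ratio of 0.693 (0.636 to 0.754). Ccl4 was carried by a minority of neutrophils, 42.3% and 32.6%, and Ccl3 by 64.2% and 53.5%. Ccl2, the attractant of monocytes, was at 463 and 39 CPM, but 116 of its 167 UMIs of day 3 lay in 1 cell, and the log2 ratio of -3.27 became -2.18 without the highest cell of each day. Il23a, a subunit of interleukin-23, was at 116 and 39 CPM, on 42 and 5 UMIs.

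Other mediators did not reach 2-fold. Il1rn, the antagonist of the interleukin-1 receptor, was at 1466 and 1130 CPM, with a ratio of 0.77 (0.637 to 0.928). Osm, the gene of oncostatin M, was at 776 and 880.3 CPM (ratio 1.13, 0.904 to 1.42) and Vegfa, an angiogenic factor, at 199.5 and 265 CPM (ratio 1.33, 0.856 to 2.02). Cxcl3, a further CXCR2 ligand, was at 260.5 and 257 CPM. Il6 had 1 and 0 UMIs, so that it was not detectable at this depth at day 7.

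The promoters of 3 of these genes are shown because each holds the letters of a kappaB element, the binding sequence of NF-kappaB. They are the 200 bases before the RefSeq start site of the gene (assembly GRCm38.p6), written 5′ to 3′ on the gene's strand, and capitals mark each match of the letters GGG, any 2 bases and TTTCC on either strand. Of the 20 genes of the list, 15 had an entry in the sequence table, and 6 of those (Csf1, Il6, Cxcl3, Cxcl1, Cxcl2 and Ccl9) held a match, against 1.18% of all 32851 promoter entries of this length. The promoters of Cxcl2, Cxcl3 and Csf1 are the 3 of these genes whose mean level was at least 100 CPM.
Cxcl2, chr5:90903699-90903898, plus strand: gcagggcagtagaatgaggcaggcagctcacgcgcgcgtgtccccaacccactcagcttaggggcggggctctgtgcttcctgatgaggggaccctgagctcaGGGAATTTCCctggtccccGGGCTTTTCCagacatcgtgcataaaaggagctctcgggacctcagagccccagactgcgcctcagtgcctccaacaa
Cxcl3, chr5:90785901-90786100, plus strand: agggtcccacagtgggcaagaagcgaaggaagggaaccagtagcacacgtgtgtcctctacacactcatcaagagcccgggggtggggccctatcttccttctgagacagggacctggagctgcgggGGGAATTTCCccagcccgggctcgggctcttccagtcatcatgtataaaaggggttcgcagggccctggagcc
Csf1, chr3:107760470-107760669, minus strand: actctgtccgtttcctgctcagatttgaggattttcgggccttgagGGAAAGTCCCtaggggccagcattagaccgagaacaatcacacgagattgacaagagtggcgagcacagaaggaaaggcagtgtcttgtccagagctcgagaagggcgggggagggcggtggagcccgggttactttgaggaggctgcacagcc

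Cxcl2 held 2 matches, which began 97 and 78 bases before the start site, Cxcl3 held 1, which began 73 bases before it, and Csf1 held 1, which began 154 bases before it. None of the 3 windows held the interferon element described further on, the AP-1 letters TGANTCA (in 5.48% of all entries) or the C/EBP letters TTGC, any 2 bases and AA (in 7.47%). Among these 3 genes the levels differed between the days by unequal amounts, since the ratios of day 7 to day 3 were 0.887 for Cxcl2, 0.987 for Cxcl3 and 0.444 for Csf1. A match is a description of the letters and was not tested for binding.

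**Figure D3:**
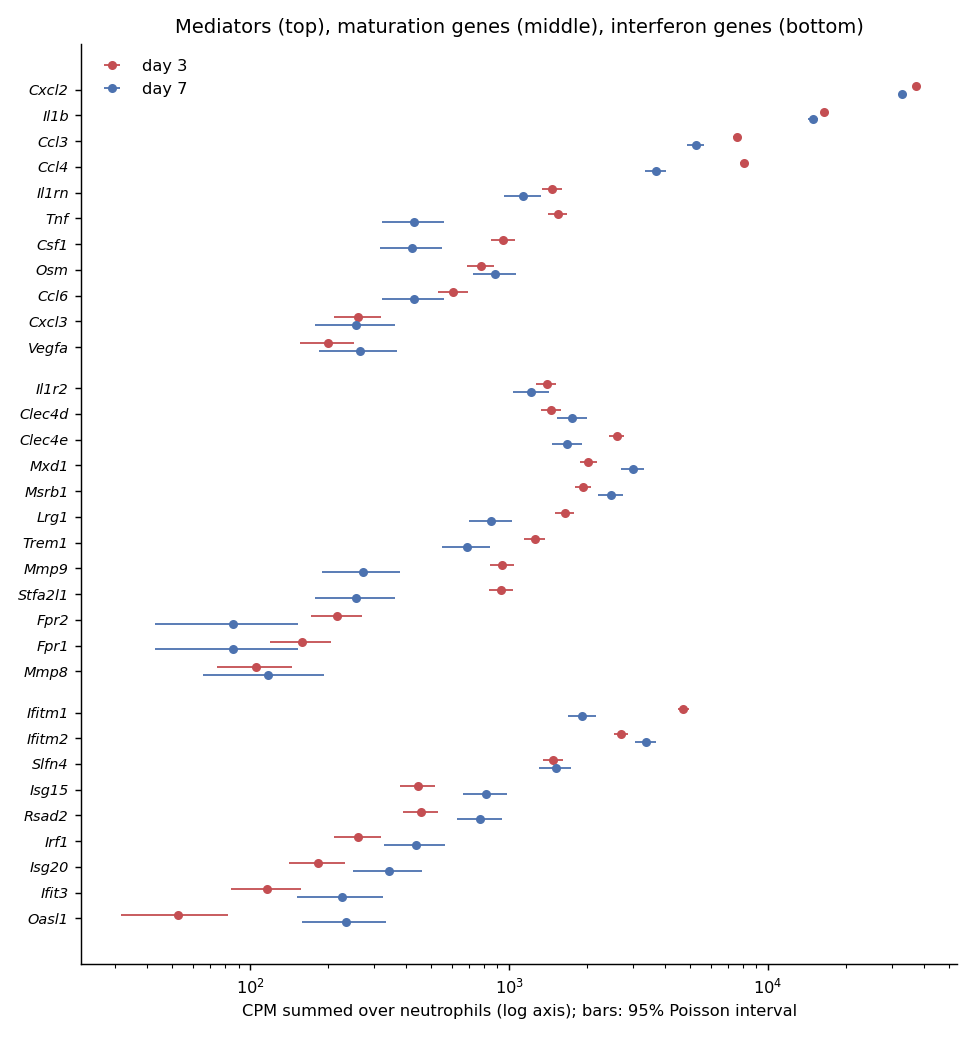
CPM summed over neutrophils at day 3 (red) and day 7 (blue) on a log axis, with the 95% Poisson interval of the count as bars, for mediators (top), genes of mature neutrophils (middle) and interferon-response genes (bottom). The intervals of Tnf, Csf1, Ccl4, Mmp9, Stfa2l1 and Ifitm1 lie apart with day 7 lower, and those of Mxd1, Isg15 and Oasl1 lie apart with day 7 higher.

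Immediate early genes and feedback genes of NF-kappaB took 4.99% of neutrophil UMIs at day 3 and 4.26% at day 7. Of 17 compared, none reached 2-fold in either direction, against 9.43% of all genes, and the median log2 ratio was -0.14. Nfkbia, the inhibitor that NF-kappaB induces against itself, was at 8627 CPM at day 3 and 5196 CPM at day 7, a ratio of 0.602 (0.553 to 0.655). Egr1, an immediate early transcription factor, was at 2525 and 1496 CPM (ratio 0.592, 0.504 to 0.693), whereas Dusp1, a phosphatase of MAP kinases, and Zfp36, which marks cytokine mRNAs for decay, had ratios of 0.957 (0.883 to 1.04) and 0.985 (0.906 to 1.07). These genes are also induced by tissue digestion, and the part of digestion in their levels was not tested.

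Egr2 and Egr3, close relatives of Egr1, were among the 15 lowest ratios. Egr2 was at 258 CPM at day 3 and 46.7 CPM at day 7 and Egr3 at 438 CPM at day 3 and 109 CPM at day 7, with ratios of 0.181 (0.0649 to 0.41) and 0.249 (0.133 to 0.43). Over the 13 settings the log2 ratio of Egr2, -2.24, ran from -2.97 to -1.17, the latter without the S100 condition. That of Egr3, -1.91, ran from -2.98 to -1.62. In the Csf1r-positive barcodes of the same libraries Egr2 was at 37 and 39.7 CPM and Egr3 at 4.78 and 16.6 CPM.

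Of 22 interferon-stimulated genes compared, 1 was 2-fold higher at day 7 (Oasl1) and 1 was 2-fold lower (Ifitm1), near the background of 4.76% and 4.68%, and the median log2 ratio was 0.25. Ifitm1, a membrane protein that blocks virus entry, was at 4711 CPM (4490 to 4941) at day 3 and 1916 CPM (1684 to 2171) at day 7, a ratio of 0.407 (0.354 to 0.465), and its log2 ratio ran from -1.62 to -1.20 over the 13 settings. Its neighbours in function differed from it, since Ifitm2 was at 2702 and 3373 CPM (ratio 1.25, 1.11 to 1.4) and Ifitm3 at 1097 and 1254 CPM (ratio 1.14, 0.946 to 1.38), although without the S100 condition, fibroblast-rich barcodes included, both turned lower at day 7, with log2 ratios of -0.15 and -0.52. With those barcodes left out as well, both log2 ratios were above 0.

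Gbp2, a guanylate-binding protein, had a ratio of 0.511 (0.175 to 1.24), and Ifi204 had one of 0.645 (0.333 to 1.17), so that both intervals included 1. Oasl2 had a ratio of 0.671 (0.456 to 0.966). Oasl1, which restrains translation of the interferon regulator Irf7, was at 52.7 CPM at day 3 and 234 CPM at day 7, on 19 and 30 UMIs, a ratio of 4.44 (2.42 to 8.35). Isg15, a ubiquitin-like modifier, was at 443 and 810.2 CPM (ratio 1.83, 1.41 to 2.35), and Rsad2, which produces an antiviral nucleotide, at 457 and 771 CPM (ratio 1.69, 1.3 to 2.18). Rsad2 was seen in 16.3% and 30.2% of neutrophils at days 3 and 7. After thinning, however, these shares were alike, at 14.5% (8.7 to 22.2) and 15% (5.71 to 29.8). Without the highest cell of each day the log2 ratio of Rsad2 went from 0.74 to 0.16 and that of Ifit3 from 0.90 to -0.01, while that of Oasl1 went from 1.96 to 1.85. Without the S100 condition, fibroblast-rich barcodes included, the log2 ratios of Isg15 and Ifit3 were -0.79 and -0.38 and that of Oasl1 was 0.92. With those barcodes left out, the values of Isg15 and Ifit3 were 0.75 and 0.76, and Oasl1 was again past 2-fold.

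The promoters of Ifitm2, Isg15 and Rsad2 are shown in the same form because they hold the letters of an interferon-stimulated response element and are the 3 most abundant such genes. Capitals mark each match of the letters TTTC, any 2 bases and TTTC on either strand. Of the 28 genes of the list, 23 had an entry, and 11 of those held a match, against 2.27% of all entries.
Ifitm2, chr7:140955962-140956161, minus strand: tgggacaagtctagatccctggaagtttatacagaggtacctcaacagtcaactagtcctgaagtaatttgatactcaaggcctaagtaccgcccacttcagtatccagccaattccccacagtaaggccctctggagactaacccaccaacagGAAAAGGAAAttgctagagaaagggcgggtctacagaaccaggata
Isg15, chr4:156200819-156201018, minus strand: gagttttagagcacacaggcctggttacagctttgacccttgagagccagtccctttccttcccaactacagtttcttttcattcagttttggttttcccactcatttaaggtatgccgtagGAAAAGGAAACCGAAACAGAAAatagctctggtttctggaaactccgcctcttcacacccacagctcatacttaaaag
Rsad2, chr12:26456453-26456652, minus strand: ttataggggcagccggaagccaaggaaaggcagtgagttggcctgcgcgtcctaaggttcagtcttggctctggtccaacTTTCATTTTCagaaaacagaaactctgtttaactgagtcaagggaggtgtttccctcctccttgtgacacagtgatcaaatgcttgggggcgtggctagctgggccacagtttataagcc

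The match of Ifitm2 began 46 bases before the start site and that of Rsad2 120 bases before it. Isg15 held 3 matches that overlap each other in 1 run, which began 78, 72 and 66 bases before the start site. In Rsad2 the window also held 1 match of the AP-1 letters TGANTCA, which did not overlap the marked match. Oasl1 and Ifitm1 were not among the 11 genes with a match, and a gene without an entry could not be among them.

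No primary granule gene was compared, since Mpo, Elane and Ctsg, the enzymes of the first granules made in the marrow, had 0 UMIs on both days. Of the list of gelatinase granule and late maturation genes, 15 were compared, of which 0 were 2-fold higher and 4 were 2-fold lower (Mmp9, Stfa2l1, Fpr2 and Stfa2), against 4.76% and 4.68% of all genes, with a median log2 ratio of -0.63. Mmp9, the gelatinase that degrades basement membrane, was at 939.5 CPM (842 to 1045) at day 3 and 273 CPM (189.9 to 379) at day 7. Its ratio was 0.29 (0.199 to 0.412), and its log2 ratio ran from -1.86 to -1.40 over the 13 settings. Stfa2l1, a stefin that inhibits cysteine proteases, was at 931 CPM at day 3 and 257 CPM at day 7, and Fpr2, a formyl peptide receptor, at 216 and 85.7 CPM. With 50 CPM added in place of 10, Fpr2 (log2 -0.97) and Stfa2 (-0.65) were no longer 2-fold lower.

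Other members of the list did not reach 2-fold. Lrg1, a leucine-rich glycoprotein, was at 1638 and 849 CPM (ratio 0.518, 0.419 to 0.637), and Trem1, which amplifies inflammatory signalling, at 1253 and 686 CPM (ratio 0.547, 0.43 to 0.689). Clec4e, a C-type lectin that senses damaged cells, had a ratio of 0.644 (0.553 to 0.748), but its partner Clec4d one of 1.21 (1.03 to 1.42). Mxd1, a repressor that opposes Myc, was higher at day 7 (2023 and 3007 CPM, ratio 1.49, 1.31 to 1.68), as was Msrb1, a methionine sulfoxide reductase (1929 and 2469 CPM, ratio 1.28, 1.12 to 1.46). Without the S100 condition the log2 ratios of Msrb1 and Clec4d turned to -0.24 and -0.31, and that of Mxd1 was 0.13. After each neutrophil was thinned to 1000 UMIs, Mmp9 was seen in 52.1% (42.7 to 61.5) and 25% (12.7 to 41.2) of the neutrophils of days 3 and 7, against 74% and 53.5% before thinning and 0% and 0.775% of thinned T cells.

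Of 12 secondary granule genes, 5 were compared and the median log2 ratio was -0.34. Lcn2, the iron-trapping lipocalin, was at 355 and 405 CPM, Pglyrp1, a peptidoglycan-binding protein, at 463 and 366 CPM, and Camp, the cathelicidin, had no UMI. The 1 member that was 2-fold lower, against 4.68% of all genes, was Ltb4r1 at 274 and 117 CPM, which is the leukotriene B4 receptor and no granule protein, and its log2 ratio of -1.16 was -0.69 without the S100 condition.

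Of 10 receptors for chemoattractants compared, 0 were 2-fold higher and 2 (Fpr2 and Ltb4r1) 2-fold lower, against 4.76% and 4.68% of all genes, with a median log2 ratio of -0.46. Ccr1, a receptor of Ccl3, had a ratio of 0.845 (0.697 to 1.02), C5ar1, the complement C5a receptor, 0.885 (0.678 to 1.14), and Cxcr4, which holds neutrophils in the marrow and marks aged ones, 0.812 (0.653 to 1). Ccrl2, an atypical receptor that binds chemerin, was the exception with 1860 and 2360 CPM and a ratio of 1.27 (1.1 to 1.46). For the 11 adhesion genes compared, none reached 2-fold, against 9.43% of all genes either way, and the median was -0.27. Itgam and Itgb2, the chains of the integrin Mac-1, were at 596 and 491 CPM and 499 and 436 CPM.

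None of 5 NADPH oxidase genes reached 2-fold, against 9.43% of all genes either way. Ncf1, a cytosolic subunit, was lower at day 7 (468 and 304 CPM, ratio 0.649, 0.446 to 0.923). Among 10 pattern recognition genes, Tlr4, the receptor of lipopolysaccharide, was the 1 that was 2-fold lower, against 4.68% of all genes (255 and 109 CPM, ratio 0.428, 0.225 to 0.755), and its log2 ratio of -1.15 was -0.94 with 50 CPM added. Cd14, its co-receptor, was at 2087 and 2610 CPM (ratio 1.25, 1.1 to 1.42) and turned to a log2 ratio of -0.13 without the S100 condition. Nlrp3, the sensor of the inflammasome that processes interleukin-1 beta, was at 987 and 709 CPM (ratio 0.719, 0.564 to 0.907).

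Of 14 survival genes compared, 0 were 2-fold higher and 2 were 2-fold lower, against 4.76% and 4.68% of all genes, with a median of -0.16. Mcl1, the main survival factor of neutrophils, was at 3838 CPM at day 3 and 3435 CPM at day 7 (ratio 0.895, 0.802 to 0.997). The 2 lower genes were Bcl2a1b (521 and 226 CPM) and Bcl2a1d (238 and 101 CPM), near-identical copies of an NF-kappaB-induced survival gene between which reads may be split, and their log2 ratios of -1.17 and -1.16 became -0.20 and -0.29 without the S100 condition and with fibroblast-rich barcodes left out. Of 18 genes listed for aged or tissue-retained neutrophils, 0 were 2-fold higher and 2 (Cd24a and Ccl4) 2-fold lower, against 4.76% and 4.68% of all genes, with a median of -0.13. Without the S100 condition neither was 2-fold lower, with log2 ratios of -0.69 for Cd24a and -0.33 for Ccl4. Siglecf, named in reviews for such cells, was at 77.6 and 70.1 CPM and thus low on both days.

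Iron and redox genes took 3.26% of neutrophil UMIs at day 3 and 4.1% at day 7, the share of Fth1 included. None of 13 compared reached 2-fold, against 9.43% of all genes either way, and the median log2 ratio was 0.12. Besides Fth1, Sqstm1, an autophagy receptor, was higher at day 7 (208 and 358 CPM, ratio 1.72, 1.17 to 2.52), and so was Txn1, thioredoxin (1203 and 1581 CPM, ratio 1.31, 1.11 to 1.56). The log2 ratio of Sqstm1, 0.76, ran from 0.11 to 0.88 over the 13 settings. After thinning, Sqstm1 was seen in 19.7% and 17.5% of neutrophils. Without the S100 condition, fibroblast-rich barcodes included, Txn1 turned lower, with a log2 ratio of -0.30, and Fth1 was at 0.06. Among 20 genes of hypoxia and glycolysis none reached 2-fold, against 9.43% of all genes either way, and the median was -0.11. Hif1a, the oxygen-regulated transcription factor, was at 149.7 and 257 CPM (ratio 1.72, 1.08 to 2.7), but its log2 ratio of 0.74 was -0.03 after thinning, whereas Gapdh and Pkm, enzymes of glycolysis, had ratios of 1.03 (0.845 to 1.25) and 0.934 (0.746 to 1.16).

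Of 17 transcription factors of granulocytes none reached 2-fold, against 9.43% of all genes either way, with a median of 0.13. Cebpb, the factor of emergency granulopoiesis, was at 4442 CPM at day 3 and 5367 CPM at day 7 (ratio 1.21, 1.1 to 1.32), Klf2 at 2866 and 1761 CPM (ratio 0.614, 0.53 to 0.71), and Fosl2 at 754 and 1106 CPM (ratio 1.47, 1.19 to 1.8). Without the S100 condition the log2 ratio of Cebpb went from 0.27 to 0.03 and that of Fosl2 from 0.55 to 0.05. That of Klf2 went from -0.70 to -1.04. For the 13 genes of phagocytosis and Fc receptors compared, none reached 2-fold, against 9.43% of all genes either way. The median was 0.02. Cd300lf, an inhibitory lipid receptor, was the lowest of them (1206 and 654 CPM, ratio 0.543, 0.424 to 0.687), and Fcgr3, a low-affinity IgG receptor, the highest (427 and 599.8 CPM, ratio 1.41, 1.05 to 1.86). Of 5 eicosanoid genes, Ptges3 was 2-fold higher (69.3 and 164 CPM), against 4.76% of all genes, but its log2 ratio of 1.13 was 0.34 without the S100 condition, whereas Ptgs2, the inducible cyclooxygenase, was at 3060 and 2228 CPM (ratio 0.728, 0.637 to 0.83).

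Class II antigen presentation genes were low on both days, as is usual for neutrophils. Of 5 compared, 1 (H2-Aa) was 2-fold higher at day 7, against 4.76% of all genes, and the median log2 ratio was 0.79. The log2 ratio of H2-Aa, 1.15, was 0.53 as a mean over cells and 0.70 with 50 CPM added. The median became 3.50 without the Csf1r condition and 2.70 without the S100 condition. The whole list summed to 407 and 732 CPM, against 19805 and 31315 CPM in Csf1r-positive barcodes. Cd74, the invariant chain, was at 158 and 280.4 CPM. The dendritic cell markers, which include H2-Aa, H2-Ab1 and Cd74, stood at 279.9 and 529.7 CPM in neutrophils and at 192.4 and 465.4 CPM in T cells, and the part of free RNA in these levels was not tested. Cell cycle genes came to 210.6 and 225.9 CPM in all, and Mki67 had 4 and 0 UMIs.

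**Figure D4:**
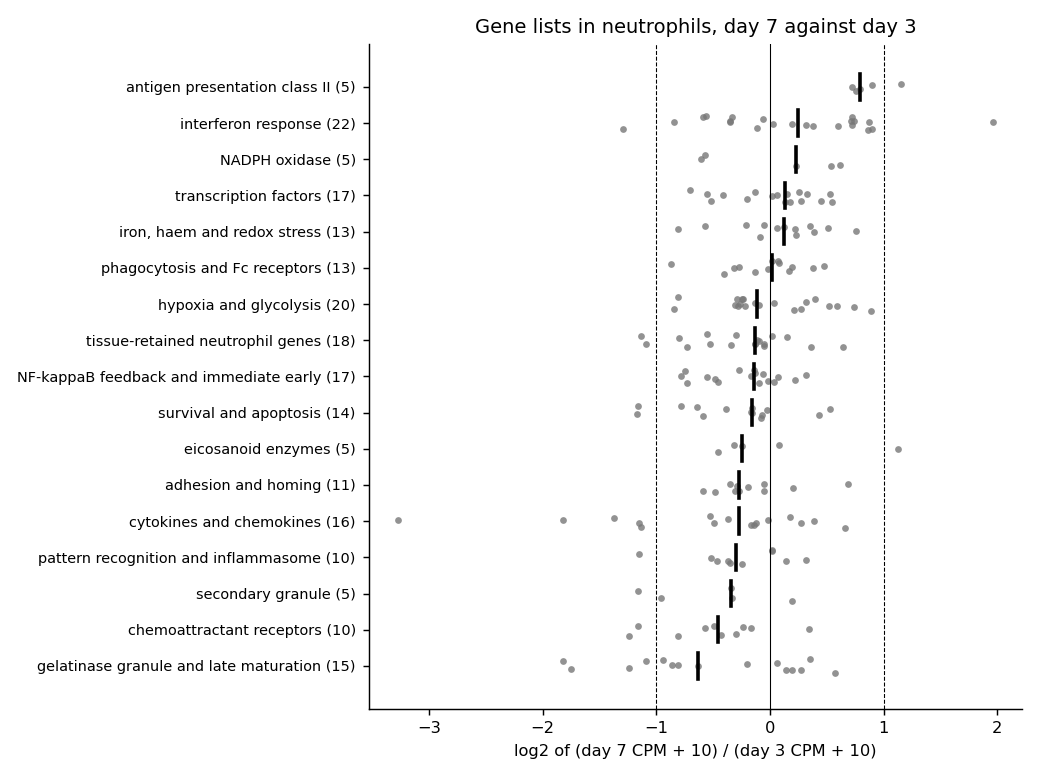
Log2 ratio of day 7 to day 3 (10 CPM added) for each gene compared (grey points) of 17 gene lists, with the number of genes in brackets; black bars are list medians and dashed lines mark 2-fold. Late maturation genes, chemoattractant receptors and secreted mediators have points left of the lower 2-fold line. No point of the NADPH oxidase, transcription factor, adhesion or phagocytosis lists lies beyond 2-fold, against 9.43% of all genes compared.

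The 15 lowest ratios among genes with a mean of at least 100 CPM were Ccl2, Hilpda, Wfdc17, Egr2, Cass4, Slc20a1, Egr3, Tnf, Stfa2l1, Mmp9, Steap4, Igfbp6, Sema4a, Kdm2a and Tbc1d14. Because they were chosen by their ratio, their values are a description. Wfdc17, a secreted protein of activated macrophages, was by far the most abundant of them, at 3317 CPM (3132 to 3511) at day 3 and 584 CPM (459.6 to 732) at day 7, a ratio of 0.176 (0.138 to 0.223). It was seen in 72.4% and 32.6% of neutrophils, and its log2 ratio ran from -3.02 to -2.10 over the 13 settings. In Csf1r-positive barcodes Wfdc17 was at 981 and 538 CPM, so that it was lower at day 7 there too.

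Several others are known for roles in metabolism and adhesion. Hilpda, a hypoxia-induced protein of lipid droplets, was at 197 and 23.4 CPM, on 71 and 3 UMIs. Slc20a1, a phosphate transporter, was at 382 and 93.5 CPM and Steap4, a metalloreductase, at 346 and 101 CPM. Cass4, a scaffold of focal adhesions, was at 177 and 39 CPM and Sema4a, a semaphorin, at 329.8 and 101 CPM. Of the 15, 14 stayed at least 2-fold lower under each of the 13 settings, and Kdm2a did not.

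The 15 highest ratios fell into different kinds of gene. Of them, 9 encode matrix or stromal proteins (Eln, Fstl1, Col1a1, Col1a2, Dcn, Sparc, Col3a1, Bgn and Ctgf), and the others included Hsp90ab1, Oasl1, Dck, Smchd1 and Smad7. Hsp90ab1, a constitutive heat shock chaperone, was at 222 CPM (176 to 276) at day 3 and 1184 CPM (1003 to 1388) at day 7, a ratio of 5.34 (4.05 to 7.09). It was seen in 30.1% and 76.7% of neutrophils, and after thinning in 14.5% (8.7 to 22.2) and 60% (43.3 to 75.1). Its log2 ratio of 2.37 was 1.37 without the S100 condition. Csf1r-positive barcodes had 1800 and 2104 CPM and T cells 1754 and 2250 CPM, so the neutrophils were below both on both days. Smchd1, a chromatin protein of X inactivation, was at 130.3 and 436 CPM (ratio 3.35, 2.23 to 5.04). Dck, a kinase of deoxynucleosides, was at 63.7 and 234 CPM. Only Hsp90ab1, Smchd1, Eln and Dcn of the 15 stayed at least 2-fold higher under each of the 13 settings.

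Summed as a list, fibroblast markers were higher at day 7 in neutrophils and in T cells but not in Csf1r-positive or all remaining barcodes. Fibroblast markers in neutrophils stood at 726.1 CPM at day 3 and 3490 CPM at day 7, and in T cells at 357.6 and 5938 CPM. In Csf1r-positive barcodes they were lower at day 7 (6097 and 2283 CPM), and over all remaining barcodes they stood at 17145 and 17068 CPM. The median neutrophil held 2 and 5 UMIs of these markers. A single barcode of day 7, with 7593 UMIs, held 202 of the 448 fibroblast marker UMIs and 330 of the 391 Eln UMIs, against at most 15 marker UMIs in any other neutrophil of that day, and it was among the likely doublets. Without it the fibroblast markers of day 7 were at 2037 CPM and Eln at 505.1 CPM, still above the 91.5 CPM of day 3. Eln, which is not in the marker list, was higher at day 7 in T cells too (27.2 and 1014 CPM). It was also higher in Csf1r-positive barcodes (162 and 524 CPM) and over all remaining barcodes (1852 and 4111 CPM). Col1a1 was at 97 and 849 CPM in neutrophils and 77 and 1621 CPM in T cells, and at 1472 and 521 CPM in Csf1r-positive barcodes. The part of free RNA in the levels of matrix genes was not tested.

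Within each day the gene groups varied widely from cell to cell. After thinning to 1000 UMIs, 117 neutrophils of day 3 and 40 of day 7 remained, and 6 and 3 were too shallow. The lowest, median and highest number of cytokine and chemokine UMIs per cell was 3, 56 and 233 at day 3 and 1, 48 and 153 at day 7. For interferon genes these values were 0, 10 and 85 at day 3 and 2, 11 and 57 at day 7, and the 12 and 4 cells with the most held 31.0% and 30.1% of the interferon UMIs. Late maturation genes ranged less, with 0, 14 and 47 at day 3 and 2, 16 and 27 at day 7. The distributions of the days overlapped for each of these lists. Iron and redox genes had medians of 27 and 37, with ranges of 6 to 133 and 10 to 114.

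**Figure D5:**
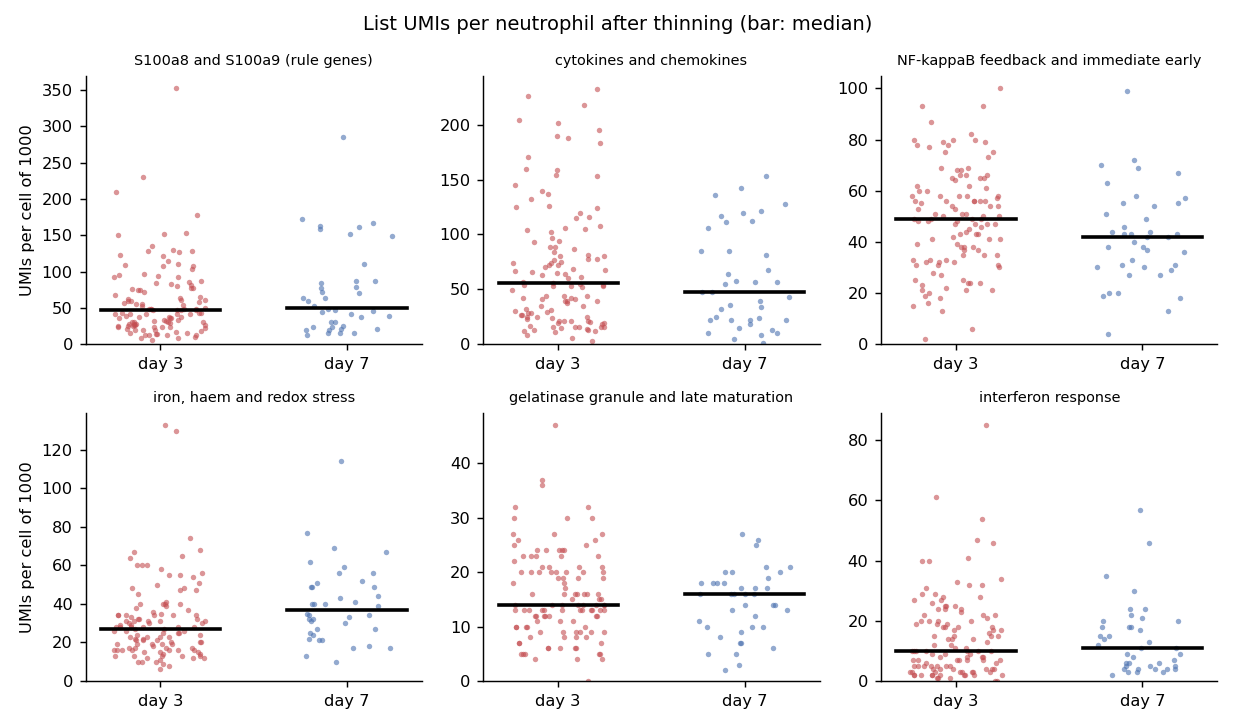
UMIs of 6 gene groups per neutrophil after thinning each cell to 1000 UMIs (117 points at day 3, 40 at day 7), with the median as a black bar. The groups overlap between the days in every panel, and the largest shift of a median is that of iron, haem and redox genes, from 27 to 37.

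Across the thinned cells of a library, some gene groups were high in the same cells. Spearman's rho between mediators and NF-kappaB feedback genes was 0.33 over 117 cells at day 3 and 0.66 over 40 cells at day 7, and between late maturation and interferon genes it was 0.32 and 0.55. S100a8 and S100a9, on which the cells were selected, gave rho of -0.15 and -0.44 with the mediators and of -0.21 and -0.40 with the feedback genes. Between mediators and interferon genes rho was -0.30 at day 3 and 0.20 at day 7. These values describe cells that share a library, and since each cell has 1000 UMIs in all, a gene group that takes more of them leaves fewer for the others.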

How the data were processed

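Droplet single-cell RNA-sequencing with UMIs was analysed in 4 libraries, 1 per day. The authors deposited unnormalized UMI counts of genes in cell-associated barcodes, made with Cell Ranger. Version 3.0.2 stands in the file headers, the methods text names another, and the build is not given in a usable form, so coordinates are those of the RefSeq promoters. All sample columns were matched to labels.

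Barcodes with at least 200 genes and at most 20% mitochondrial UMIs were kept. Neutrophils were defined by the thresholds in the text, and their counts were summed per day to CPM. Exact Poisson intervals were used for levels, conditional binomial intervals for ratios of summed counts and of shares, and Clopper-Pearson intervals for shares of cells, at 95%. A count of 0 was given a limit of 3 counts. Ratios of summed counts carry no added CPM, whereas log2 ratios add 10 CPM. T cells (at least 2 UMIs of Cd3d, Cd3e, Cd3g and Trbc2, no Csf1r, S100a8 plus S100a9 under 1%) served as a reference for free RNA. Doublet scores came from Scrublet (scanpy 1.11.5). The automatic cutoff took 1 and 2 barcodes at days 3 and 7 and was judged not to have worked, so the highest scores were marked at 0.8% per 1000 barcodes, which took 23 and 72 barcodes, 4 and 1 of them neutrophils. They were kept in the values given and left out in an alternative. Python 3.11.15, numpy 2.4.6, scipy 1.17.1 and pandas 2.3.3 were used. The ratio intervals were run on simulated independent Poisson counts, the model they assume, so clumping of UMIs in single cells was not tested.

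The members, the 19 gene lists and the 16 marker lists were chosen with earlier results of these data known. Genes were named if they belonged to the definition or to a list, were among the 20 most abundant, or had 1 of the 15 highest or lowest log2 ratios (mean at least 100 CPM, interval excluding 1, same sign in the mean over cells, seen in at least 10% of neutrophils on the higher day, mitochondrial, ribosomal and unnamed genes left out). A few genes that meet this rule are not reported here.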

Additional observations from a re-analysis of the deposited data

Results flagged for a closer look

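Barcodes outside the definition of neutrophils held neutrophil genes. With S100a8 and S100a9 under 1% of UMIs, at least 4 UMIs of the 5 other genes and no Csf1r, there were 70 of 1528 barcodes at day 3 and 55 of 2749 at day 7, but also 15 of 330 at day 0 and 19 of 1101 at day 14, so that before any limit on fibroblast markers the share at day 3 was close to that of the uninjured library and the share at day 7 was lower. With fibroblast markers also under 1%, a limit set after the values were seen, 65 remained at day 3 and 50 at day 7, against 0 at day 0 and 1 at day 14. Cxcl2, which did not select them, was at 27144 and 23163 CPM. At day 7 they also held Mcpt8 at 171.6 CPM and Cpa3 at 243.5 CPM, genes of basophils and mast cells.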

How the results depend on the processing

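No paired analysis was possible because each day had 1 library. Leaving out a replicate was not possible either. Between days 3 and 7 the share of neutrophils was lower at day 7 under every definition tried. Without the Csf1r condition the share of day 3 was 9.62%. Without the S100 condition, an alternative chosen after seeing the data that asks for 4 UMIs of the other genes, the shares were 12.2% and 3.56% and their ratio 0.291, and with fibroblast markers also under 1% they were 11.9% and 3.31% with a ratio of 0.278. Of 242 named genes, 135 kept their sign under each of 13 alternatives. Of those at least 2-fold different, Fstl1 changed sign, to -0.41 on the log2 scale, without the S100 condition, and was at 1.76 when fibroblast-rich barcodes were left out as well.

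Counts of genes at least 2-fold higher and lower at day 7 differed by setting. With 50 CPM added and the same genes compared, they were 53 and 48. They were 328 and 293 after thinning, where slightly more genes entered. At a mean of at least 20 CPM, where many more genes entered, they were 316 and 327. At a mean of at least 200 CPM, where fewer genes entered, they were 26 and 24. The class II list median was 3.50 without the Csf1r condition, 2.70 without the S100 condition and 2.80 with fibroblast markers also under 1%. Of the alternative list medians, 218 stayed inside the range set around the main median and 3, those of the class II list, did not. This range was wide, at -1.11 to 0.37 around -0.16 for survival genes and -0.85 to 0.06 around -0.63 for late maturation genes. A median that stayed inside it was therefore not shown to be stable.

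Leaving out neutrophils with at least 3 UMIs of other cell types' markers left 31 and 1 cells and gave no comparison. Of the shares of cells with a UMI, 17 of the alternative values, from cells not thinned or thinned to 500 UMIs, fell outside the interval of the main share and 23 did not.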
